A study of Mus musculus with 6 samples.

Results

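Binding of p65 was examined at 10 genes of the type 2 and thymic stromal lymphopoietin (TSLP) alarmin axis: the ligands Il9, Tslp, Il7 and Il33, and the receptor chains Il9r, Crlf2, Il7r, Il1rl1, Il4ra and Il13ra1. A peak was counted for a gene when the nearest RefSeq transcription start site (TSS) to the middle of the peak belonged to that gene, and peaks within 50 kb of a TSS of the gene were listed as well. By this rule 4 of the 10 genes had a peak in at least 1 condition, Il9, Crlf2, Il4ra and Il13ra1, and 6 had none, Il9r, Tslp, Il7, Il7r, Il33 and Il1rl1. These 10 were compared with all 20923 protein-coding genes on the chromosomes that held peaks.

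Peak lists of p65 ChIP–seq were deposited for 3 conditions, from epidermal cells that trypsin had freed from the skin of C57bl/6J mice. Adult mice received no treatment, and adults in the study as a whole were 17 to 25 weeks old. Aged mice entered treatment at 73 weeks of age and received intraperitoneal injections 3 times a week for 12 weeks, of a control IgG (aged/IgG control, written aged IgG below) or of blocking antibodies against IL-17A and IL-17F (aged/anti-IL-17A/F, written aged anti-IL-17 below). The labels give no allele beyond the strain. Each list came from the merged reads of 4 mice, so that there is 1 list per condition, no spread between mice and no test between conditions, and every comparison below is a description of these 3 lists. Trypsin-freed epidermal cells can include resident immune cells, and a bulk library cannot tell fewer cells of a type from less binding per cell. Keratinocyte marker genes had a peak in 5, 3 and 4 of 5 cases in the adult, aged IgG and aged anti-IL-17 lists, Langerhans cell markers in 1, 1 and 1 of 4, T cell markers in 0, 0 and 0 of 4 and fibroblast markers in 1, 0 and 1 of 4. The shares over all protein-coding genes, 23.1%, 12.9% and 17.4%, fall in the same order of lists as the keratinocyte counts. The Langerhans cell counts came from different genes. Itgax had a peak in aged IgG alone, as Il9 and Crlf2 did. It was weak (fold enrichment 3.20, percentile 26.4 of the list) and lay 31851 bp from the Itgax TSS. Cd74 went the other way, with a peak in adult (4.27) and aged anti-IL-17 (3.37), 85 and 120 bp from its TSS. Cd207, the defining Langerhans cell marker, and Csf1r had none in any list. The part of immune cells in the results below was not tested.

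The adult list held 8525 peaks, the aged IgG list 4169 and the aged anti-IL-17 list 6014. The methods state that each merged file was downsampled to 100000000 reads, and the number of reads under a single peak is not in the lists. All 8525 peaks of the list labelled adult have names that begin with the word Treated, as do all 6014 of the aged anti-IL-17 list. The labels were kept here. If these 2 lists were exchanged, the aged IgG list would not be touched, and the adult and aged anti-IL-17 values below would trade places.

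TSLP, IL-33 and IL-7 are released by epithelial and stromal cells, and TSLP and IL-33 are called alarmins because barrier damage releases them. TSLP signals through CRLF2 paired with the IL-7 receptor chain (Il7r), IL-33 through ST2 (Il1rl1), and IL-4 and IL-13 through the IL-4 receptor α chain (Il4ra), which pairs with IL13RA1 on epithelial cells. p65 (Rela) is the main activating subunit of NF-κB, and binds a 10-base motif, the κB site, near genes that inflammatory cytokines switch on.

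The stretches of genome under the peaks of the 4 genes with a peak are shown first, because they differ in the motifs they hold. All are from the mm10 (GRCm38) plus strand, 5′ to 3′. Capitals mark a match to the κB consensus on either strand in the Il4ra promoter region and in both Il13ra1 regions. In the Il4ra intron and at Il9, where no full match was found, they mark κB matches with 1 mismatch, and at Il9 and Crlf2 they mark a match to the AP-1 motif TGANTCA, which is TGACTCA in both. Marked matches overlap in the Il13ra1 promoter region, where 2 κB matches share bases, and at Il9, where 2 near matches do. The stretch headed Crlf2 intron lies in exon 2 of 1 of the 3 curated transcripts (NM_001310694.1) and in intron 1 of the others.
Il4ra promoter, chr7:125552281-125552310: ccttctcgcaGGAAAGCCCCgcgcggcgcg
Il4ra intron, chr7:125557490-125557611: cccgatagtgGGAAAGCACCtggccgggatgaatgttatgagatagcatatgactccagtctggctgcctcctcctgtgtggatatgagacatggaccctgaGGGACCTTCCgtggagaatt
Il13ra1 promoter, chrX:36112473-36112563: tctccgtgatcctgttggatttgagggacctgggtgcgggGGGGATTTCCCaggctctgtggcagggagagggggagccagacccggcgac
Il13ra1 distal, chrX:36070514-36070603: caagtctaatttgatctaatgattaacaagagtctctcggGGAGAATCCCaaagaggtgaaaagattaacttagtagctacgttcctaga
Il9 downstream, chr13:56476967-56477117: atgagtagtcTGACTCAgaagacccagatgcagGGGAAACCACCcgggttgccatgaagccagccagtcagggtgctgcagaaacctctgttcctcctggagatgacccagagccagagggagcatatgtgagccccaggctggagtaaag
Crlf2 intron, chr5:109557683-109557709: gccatttcccTGACTCAgacccttggc

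Counted by nearest TSS, 2 of the 10 genes had a peak in adult, 4 in aged IgG and 2 in aged anti-IL-17, with 4, 5 and 3 peaks. Among all protein-coding genes the shares were 23.1% in adult, 12.9% in aged IgG and 17.4% in aged anti-IL-17, so that the adult and aged anti-IL-17 counts lay near the background. The aged IgG count was the highest only while weak peaks were included. With a −log10 q of at least 10 the counts were 2 genes in adult, 1 in aged IgG and 2 in aged anti-IL-17, which made aged IgG the lowest. At this threshold 16.8%, 9.67% and 13.0% of protein-coding genes had a peak, again with aged IgG the lowest. Il4ra and Il13ra1 had a peak in every list, as 11.4% of protein-coding genes did. Il9 and Crlf2 had one in the aged IgG list alone, which holds for 81 protein-coding genes (0.387%). Both are examples that the study itself names from these lists, and they make up the difference between aged IgG and the other lists in the count of genes, so nothing is read from that share or from that difference. Within 50 kb of a TSS, a peak was found for 5 genes in adult, 6 in aged IgG and 4 in aged anti-IL-17, where all protein-coding genes gave 43.6%, 27.6% and 35.1%. Crlf2 made the difference between aged IgG and adult. Crlf2 and Tslp, whose aged IgG peak had a −log10 q of 4.12, made that between aged IgG and aged anti-IL-17. Nothing is read from this lead of aged IgG either.

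**Figure D1:**
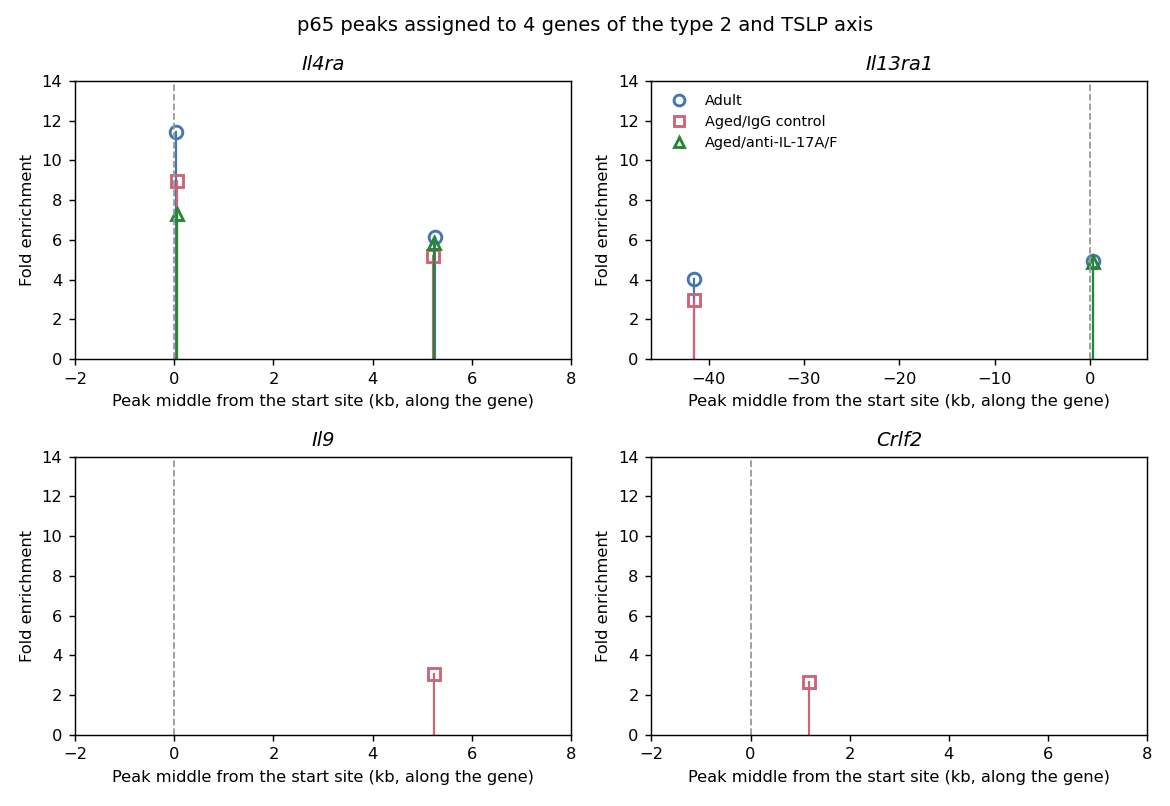
Fold enrichment (vertical axis, the authors' ratio over local background) of each peak assigned to Il4ra, Il13ra1, Il9 and Crlf2 against the distance of its middle from the start site in kb (horizontal axis, positive along the gene), with 1 symbol per peak and condition and no error bars because each condition is 1 merged list. Il4ra had peaks at both positions in all 3 lists, and the peaks of Il9 (3.06) and Crlf2 (2.66) were from aged IgG.

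Among the ligands, Il9 was the 1 gene with a peak of its own. It encodes a cytokine of T cells, innate lymphoid cells and mast cells. Its peak, in aged IgG, spanned chr13:56476847-56477188, in intergenic sequence 5239 bp from the TSS and 2089 bp past the 3′ end of the gene. The fold enrichment, which is the authors' ratio of the pileup to the local background, was 3.06, which ranked 3329 of 4169 in the list, with a −log10 q of 6.92. This is a weak peak of its list, and 25 peaks of the list have exactly the same fold enrichment and −log10 q. No peak of the adult or aged anti-IL-17 list overlapped it, and the nearest lay 38145 bp away in adult and 38086 bp away in aged anti-IL-17. The peak held no κB match. The 2 overlapping near matches shown above are GGGAAACCAC on the plus strand and GGTGGTTTCC on the minus strand, 103 and 102 bp from the summit, and TGACTCA was 127 bp from it.

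The strong peaks in the surroundings of Il9 belonged to Slc25a48, a mitochondrial carrier gene, 44.1 kb from the Il9 TSS. There the values were 11.7 in adult, 5.84 in aged IgG and 8.98 in aged anti-IL-17, with a κB match within 100 bp of the summit in each list. The value was highest in adult and lowest in aged IgG, the list that held the Il9 peak. The ratio of adult to aged IgG was 2.01, which lay at percentile 97.2 of the 3879 adult peaks that overlap an aged IgG peak (median ratio 1.23, with 0.801 and 1.88 at percentiles 5 and 95). Among the 852 pairs whose adult peak is in the same decile of fold enrichment (median 1.42), it lay at percentile 92.3. Since the decile is set by the list in the numerator, strong deciles have higher median ratios, and both percentiles are given for each ratio below.

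Il7, a survival factor for lymphocytes, had no peak within 50 kb in any list. Its nearest peak, at Zc2hc1a, was 109.6 kb away in adult and 109.7 kb away in aged anti-IL-17, while in aged IgG it was 1414 kb away, at Tpd52. Il33, the nuclear alarmin of barrier cells, had its nearest peak 261.2 kb away in adult and 261.3 kb away in aged anti-IL-17, both nearest to Ermp1, and 270.1 kb away in aged IgG, nearest to Mbl2. For comparison, the median distance from a protein-coding gene to its nearest peak was 68.3 kb in adult, 147.3 kb in aged IgG and 101.1 kb in aged anti-IL-17. Il33 was thus farther from a peak than the median gene in every list.

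Tslp, the alarmin gene of the axis, had no peak by nearest TSS. The closest peak on chromosome 18 lay 20.6 kb from the Tslp TSS in adult and in aged IgG, over coding exon 1 of Wdr36, with the TSS of the noncoding gene 4930455D15Rik nearest. It spanned 32837290 to 32837701 in adult and 32837229 to 32837675 in aged IgG. Its fold enrichment was 2.97 in adult (−log10 q 9.16) and 2.53 in aged IgG (−log10 q 4.12), and neither peak held a κB match. In aged anti-IL-17 no peak overlapped it, and the nearest to Tslp was 383.0 kb away, at Gm35060. Among peaks of like strength, meaning those of the same decile of their list, 65.8% of adult peaks and 34.8% of aged IgG peaks had no overlap in aged anti-IL-17.

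**Figure D2:**
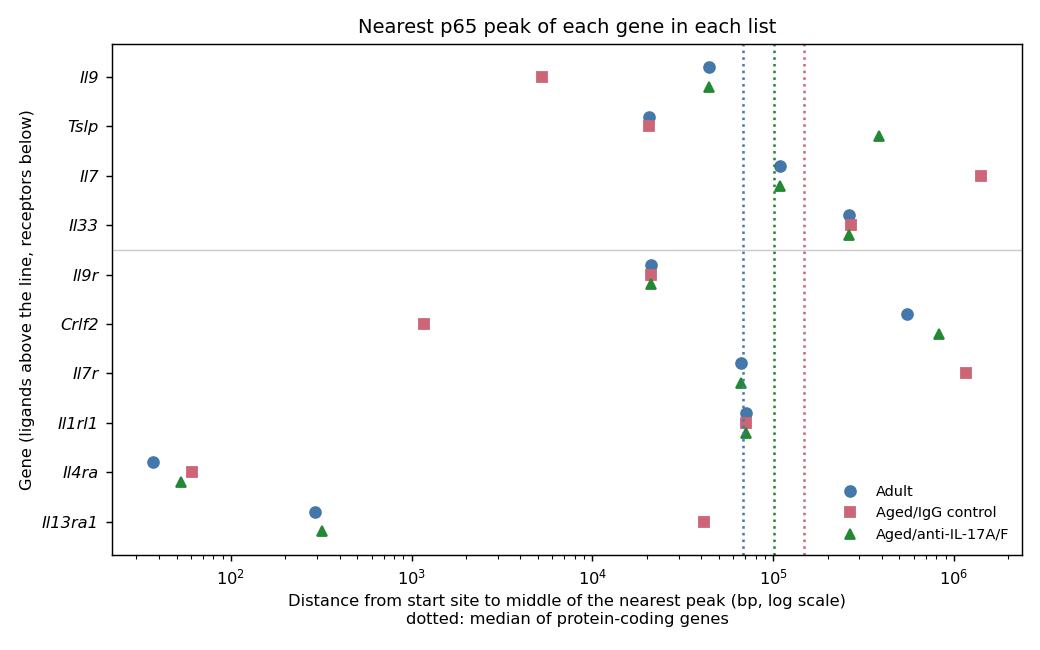
Distance in bp (horizontal axis, log scale) from a start site of each of the 10 genes (vertical axis) to the middle of the nearest peak in each list, with 1 symbol per list and the median of all protein-coding genes dotted in the colour of the list. Il4ra lay within 61 bp of a peak in all 3 lists, Crlf2 lay 1174 bp from one in aged IgG and 548725 and 827494 bp from one in adult and aged anti-IL-17, and Il33 lay 261226 bp or more from one in each.

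Of the receptor chains, Il4ra carried the strongest peaks of the 10 genes. The peak over its TSS (chr7:125552271, plus strand) spanned 125551955 to 125552660 in adult, 125552022 to 125552642 in aged IgG and 125552011 to 125552636 in aged anti-IL-17. The fold enrichment reached 11.4 in adult (rank 202 of 8525), 8.96 in aged IgG (rank 176 of 4169) and 7.29 in aged anti-IL-17 (rank 551 of 6014), and the −log10 q was 115, 71.6 and 61.4. The peak thus stood at percentiles 97.6, 95.8 and 90.8 of the lists. The 3 summits lay within 54 bp of each other, in the 5′ UTR exon in adult and aged IgG and at the start of intron 1 in aged anti-IL-17. The κB match shown above, GGGGCTTTCC when read on the minus strand, lies in the 5′ UTR exon, 15, 4 and 50 bp from the summits.

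The fold enrichment at the Il4ra TSS was lowest in aged anti-IL-17. The ratio of aged anti-IL-17 to aged IgG was 0.814, at percentile 10.03 of the 3605 overlapping pairs (median 1.10, with 0.732 and 1.64 at percentiles 5 and 95) and at percentile 3.08 of the 601 pairs of its decile (median 1.25, with 0.858 at percentile 5). The ratio of adult to aged anti-IL-17 was 1.57, at percentile 91.5 of 5146 pairs (median 1.11) and 82.8 of its decile. The ratio of adult to aged IgG was 1.28, at percentile 55.6 of its pairs and 32.9 of its decile. With 1 list per condition, these percentiles place the peak among other peaks and do not measure the error of its ratio.

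A weaker peak lay in intron 1 of Il4ra, 5.2 kb past the TSS. It spanned 125557258 to 125557780 in adult, 125557207 to 125557782 in aged IgG and 125557266 to 125557759 in aged anti-IL-17. Here the values were 6.14 in adult, 5.19 in aged IgG and 5.86 in aged anti-IL-17, at percentiles 85.2, 77.2 and 83.3. The order of the aged lists was the reverse of that at the TSS. The ratio of adult to aged IgG was 1.18, at percentile 43.8 of all pairs and 22.3 of its decile. The ratio of aged anti-IL-17 to aged IgG was 1.13, at percentiles 54.3 and 38.1, and that of adult to aged anti-IL-17 was 1.05, at percentiles 41.4 and 25.3. The region held no full κB match. Its near matches were GGTGCTTTCC on the minus strand, 15 to 27 bp from the summits, and GGGACCTTCC on the plus strand, 65 to 107 bp from them.

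Il13ra1, the partner of Il4ra, was bound at different positions in different lists. At its TSS (chrX:36112108, plus strand) a peak with its summit in intron 1 spanned 36112047 to 36112748 in adult, with a fold enrichment of 4.92 (rank 2059, −log10 q 24.0), and 36112140 to 36112714 in aged anti-IL-17, with 4.88 (rank 1569, −log10 q 23.6). These values are nearly equal, with a ratio of 1.01, at percentile 35.6 of all pairs and 24.6 of its decile. No aged IgG peak overlapped, and the nearest was 41302 bp from the adult peak. Among peaks of like strength, 25.8% of adult peaks and 9.63% of aged anti-IL-17 peaks had no overlap in aged IgG. Over all strengths these shares were 54.5% of adult peaks and 40.1% of aged anti-IL-17 peaks. The 2 overlapping κB matches of the promoter region, GGGGATTTCC and GGGATTTCCC on the plus strand, lay 188 and 189 bp from the adult summit and 101 and 102 bp from the aged anti-IL-17 summit.

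The other Il13ra1 peak lay 41.5 kb before the TSS, in intron 52 of Dock11, which encodes an activator of the GTPase CDC42. It spanned 36070380 to 36070742 in adult, with a fold enrichment of 4.02 (rank 3257), and 36070441 to 36070745 in aged IgG, with 2.99 (rank 3442, −log10 q 6.42). The ratio of adult to aged IgG was 1.35, at percentile 63.5 of the pairs and 74.4 of its decile. In aged anti-IL-17 no peak overlapped, and the share of peaks with no overlap there was 24.7% in the same decile of the adult list and 29.0% in the same decile of aged IgG. For all peaks it was 39.6% of adult and 13.4% of aged IgG. The κB match, GGGATTCTCC on the minus strand, lay 10 bp from the adult summit and 54 bp from that of aged IgG. Il13ra1 thus counted as bound in all 3 lists, but neither position had a peak in all 3 lists.

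Crlf2, the TSLP-specific receptor chain, had a peak in aged IgG at chr5:109557669-109557968, 1174 bp from the TSS at 109558993 on the minus strand. Its fold enrichment was 2.66, which ranked 3883 of 4169, and its −log10 q was 4.54, so that it stood at percentile 6.87 of the list. The width of 300 bp is the fixed fragment length given to the peak caller. No other list had an overlapping peak, and the nearest lay 549566 bp away in adult and 828006 bp away in aged anti-IL-17. The summit was in intron 1, 2 bp past the edge of exon 2 of 1 of the 3 curated transcripts (NM_001310694.1), and the AP-1 match shown above, 55 bp from the summit, lies in that exon and in intron 1 of the other transcripts. The peak held no κB match, even with 1 mismatch allowed.

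Both genes with a peak in aged IgG alone were thus represented by weak peaks. Of the aged IgG peaks, 6.69% had no overlap in adult and 13.4% had none in aged anti-IL-17. Among the 417 peaks in the decile that holds the Crlf2 peak, 16.1% had no overlap in adult, 34.8% had none in aged anti-IL-17 and 12.0% had none in either. In the decile that holds the Il9 peak these shares were 15.8%, 29.0% and 10.1%. In all, 175 aged IgG peaks (4.20%) overlapped no other list, and their median fold enrichment was 3.06, with 3.88 for the other peaks of the list. The part that weak signal played in the absence of these peaks elsewhere was not tested.

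**Figure D3:**
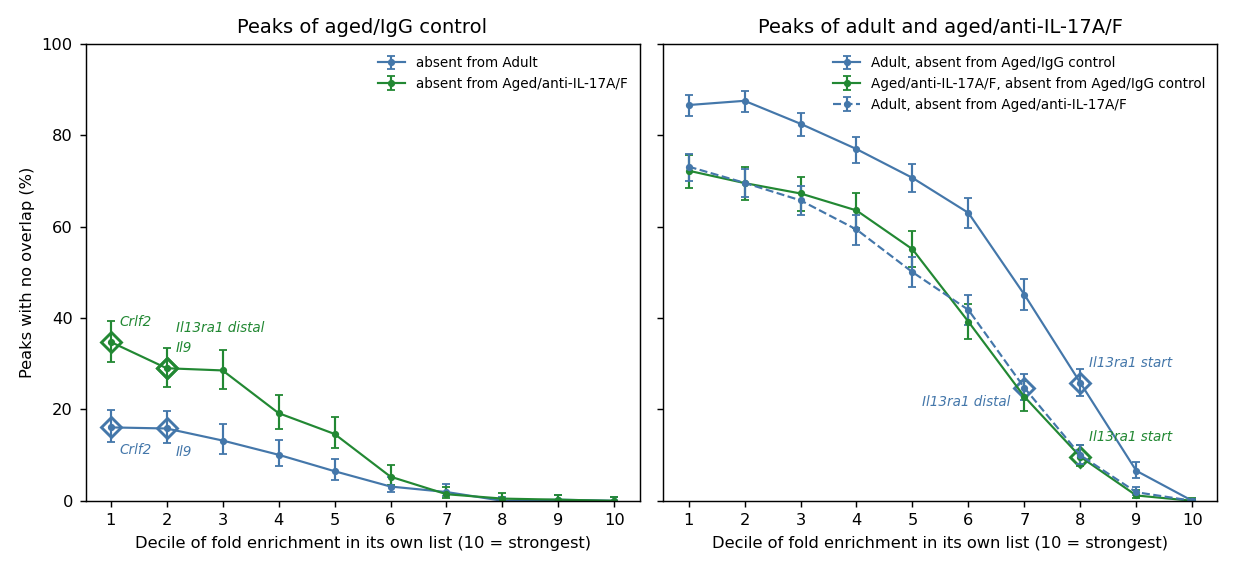
Share of peaks with no overlap in another list (vertical axis, %) by decile of fold enrichment in the list they come from (horizontal axis, 10 the strongest), with 95% Wilson intervals as bars, for peaks of aged IgG (left) and of the other lists (right). Diamonds mark the deciles that hold peaks of Il9, Crlf2 and Il13ra1 with no overlap, and the shares there run from 9.63% to 34.8%.

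The remaining receptor chains had no peak by nearest TSS. Il9r, the IL-9 receptor chain, lay near 2 peaks of Rhbdf1, which encodes an inactive rhomboid protein. The one 21.1 kb from the Il9r TSS, in intron 1 of Rhbdf1, had a fold enrichment of 5.93 in adult, 4.95 in aged IgG and 5.64 in aged anti-IL-17. The one over the Rhbdf1 TSS had 4.58, 2.86 and 4.73. The values of this second peak were alike in adult and aged anti-IL-17 and lower in aged IgG, where the ratio of aged anti-IL-17 to aged IgG was 1.65, at percentile 95.3 of the pairs and 94.9 of its decile.

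Il7r, the chain shared by the IL-7 and TSLP receptors, had its nearest peak at Capsl, 66.2 kb away in adult and in aged anti-IL-17, with a fold enrichment of 4.85 and 3.98. In aged IgG the nearest was 1161 kb away, at Rai14. Il1rl1, the IL-33 receptor chain ST2, had its nearest peak 70.6 kb away in all 3 lists, at the neighbouring gene Il1rl2, which encodes the receptor for IL-36. That peak had a fold enrichment of 7.39 in adult, 5.38 in aged IgG and 8.02 in aged anti-IL-17. It lay outside the 50 kb window of Il1rl1.

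Across the lists, a κB match anywhere in the peak was found in 34.9% of adult, 44.7% of aged IgG and 41.9% of aged anti-IL-17 peaks. Of the peaks assigned to the 10 genes, 3 of 4 in adult, 2 of 5 in aged IgG and 2 of 3 in aged anti-IL-17 had one. TGANTCA was in 22.9%, 23.8% and 24.8% of the peaks of the lists, and among the peaks assigned to the 10 genes by nearest TSS it was in 2, those of Il9 and Crlf2. It was also in the peaks over the start sites of Slc25a48, in every list, and of Rhbdf1, in adult and aged anti-IL-17. The palindrome TTCNNNGAA, which STAT factors bind, and its variant with 4 bases between the arms were in none of the peaks assigned to the 10 genes. The peak nearest to Tslp held the variant in adult and in aged IgG. In the RefSeq promoter table for GRCm38.p6, which runs from 250 bases before to 50 after a TSS, 8 of the 10 genes were matched, with 10 promoters. Tslp and Il7 were not matched. The Il4ra promoter held a κB match, as 4.51% of 32851 promoters did, and the other 9 did not. TGANTCA was in the Il9 promoter and in 7.81% of all promoters, TTCNNNGAA in that of Il7r and in 8.30%, and the variant with 4 bases in those of Il9 and Il33 and in 6.95%. The κB matches of the Il13ra1 promoter region lie past the end of this window, and that of its distal region lies before its start.

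Other genes of the axis were read from lists of 68 genes. A peak was found for 30 in adult, 18 in aged IgG and 27 in aged anti-IL-17, or 44.1%, 26.5% and 39.7%, where all protein-coding genes gave 23.1%, 12.9% and 17.4%. There were 17 genes with a peak in every list and 36 with none. The signalling list (Janus kinases, STATs and adaptors) had 11, 8 and 9 of 17 genes with a peak, the feedback list 5, 3 and 4 of 7, and the list of genes that control alarmin release in keratinocytes 8, 6 and 9 of 12. Other ligands had 2, 0 and 3 of 9, other receptors 3, 1 and 2 of 13, and type 2 target genes 1, 0 and 0 of 10. The lists were chosen with earlier results of these data known, so their shares are not read as an enrichment of the axis.

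High fold enrichments among these genes were found at Trpv3, Tyk2, Cish and Gata3. Trpv3, a heat-gated channel of keratinocytes, had a fold enrichment of 10.8 in adult, 7.004 in aged IgG and 7.06 in aged anti-IL-17. Tyk2, a Janus kinase, had 8.87, 5.58 and 8.38. Cish, a STAT5-induced feedback inhibitor, had 8.71, 6.37 and 7.85, and Gata3, a type 2 lineage factor that keratinocytes also express, had 8.18, 4.92 and 6.89, at a peak 128492 bp from its TSS in adult. Each of these 4 genes was highest in adult, as was the peak at the Il4ra TSS, and adult was the higher list in most pairs. The 4 were picked for a high value in any list, which favours the list with the higher values. Of all overlapping pairs, 78.5% were higher in adult than in aged IgG and 65.5% higher in adult than in aged anti-IL-17.

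Stat6, which carries the IL-4 and IL-13 signal from Il4ra, had peaks in adult and aged anti-IL-17, with a highest fold enrichment of 3.75 and 3.57, and none in aged IgG. The same lists and not aged IgG held peaks of Il25, an epithelial type 2 alarmin, with 3.27 and 3.44, and of Il1rap, the partner chain of ST2, with 4.36 and 2.73. They also held peaks of Stat5b with 2.67 and 3.27, of the feedback inhibitor Socs3 with 4.58 and 2.82, and of the nuclear receptors Vdr with 2.84 and 2.71 and Rxrb with 3.21 and 2.88. Il15, a lymphocyte growth factor, had peaks in the same lists as well. Its highest values were at different sites, 4.18 in adult at 76806 bp from its TSS and 3.60 in aged anti-IL-17 at 255 bp. Peaks in adult alone were assigned to Il15ra (3.74, at 8496 bp from its TSS), Traf6 (2.68), Ptpn6 (3.21) and Ear2 (4.09, at 15085 bp). Peaks in aged anti-IL-17 alone were assigned to Il13 (3.21, at 28.7 kb from its TSS) and Stim1 (3.19). Irs2 had a peak in adult (2.95) and aged IgG (3.15), 68205 and 68188 bp from its TSS. Of all adult peaks, 19.3% overlapped aged anti-IL-17 and not aged IgG. In the adult list 54.5% of peaks had no overlap in aged IgG, the shortest list, and 39.6% had none in aged anti-IL-17. Of aged anti-IL-17 peaks, 40.1% had none in aged IgG. These are shares of peaks. The shares of all protein-coding genes with these patterns were not counted, so nothing is read from the genes named here.

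**Figure D4:**
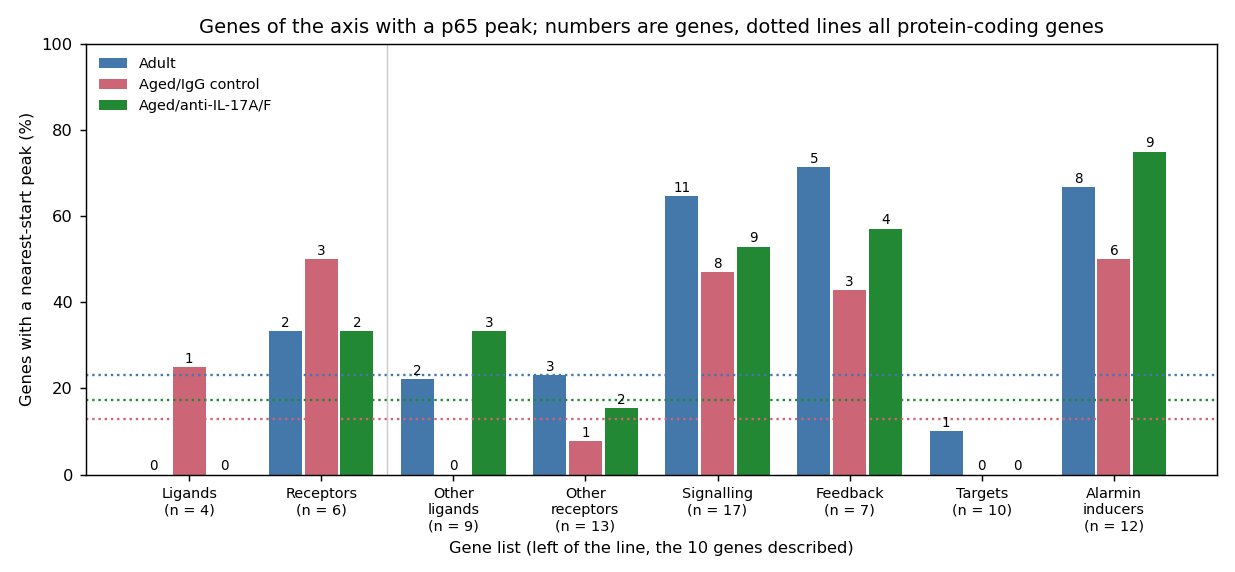
Share of genes with a peak by nearest start site (vertical axis, %) in each gene list (horizontal axis), as bars by condition with the number of genes above them and the shares of all protein-coding genes (23.1%, 12.9% and 17.4%) dotted. The signalling, feedback and alarmin inducer lists stand above the dotted lines in every condition, from 42.9% to 75.0% of genes, and type 2 target genes below them, with 1 of 10 genes in adult and 0 in the other lists. The gene lists were chosen with earlier results of these data known.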

How the data were processed

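ChIP–seq against p65 was performed on epidermal cells of 4 mice per condition. In the authors' pipeline, reads were trimmed (Trimmomatic 0.36) and aligned to mm10, the 4 mice were merged, deduplicated and downsampled (100000000 reads per condition), and MACS2 called peaks (q value 0.01, extension size 300 bp). The use of the 3 inputs in peak calling is not stated, and they were not analysed here. The deposited lists give a fold enrichment (a ratio), the −log10 of a p-value and of a q-value, and a score that is 10 times the −log10 q cut to a whole number. Merging removes the variation between mice, and a peak near the threshold can be listed in 1 condition and missed in another with little difference in signal.

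Here peaks were assigned from their middle to the nearest TSS of curated transcripts of RefSeq GRCm38.p6, the assembly of mm10, and compared by an overlap of at least 1 bp. The peaks of each list were split into 10 equal groups by fold enrichment, so that a peak could be read against others of its strength. The κB consensus, TGANTCA, TTCNNNGAA and the variant of the last with 4 bases between the arms were searched on both strands of whole peaks. Wilson intervals cover counting error only. Named were the 10 genes, the genes nearest to any peak within 50 kb, genes of the 68 with a peak in some but not all lists, and the 5 with the highest fold enrichment, of which 1 is not reported here. The nearest peaks beyond 50 kb and the κB matches within 100 bp of a summit were added to these once their values had been seen. The 10 genes and the lists were chosen with earlier results of these data known. Assignment, overlap and motif search were tested on simulated data, the overlap against bedtools. The versions were pysam 0.24.0, pandas 2.3.3, numpy 2.4.6 and matplotlib 3.10.9, under Python 3.11.15.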

Additional observations from a re-analysis of the deposited data

How the results depend on the processing

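There is 1 merged list per condition, so no list could be left out and no spread measured, and the number of reads under a weak peak is not in the lists. No paired analysis was possible because each condition has 1 list and no replicates. Counts of genes and peaks were recomputed with a −log10 q of at least 5 or 10, with the strongest 4169 peaks of each list, from the summit, with protein-coding TSSs alone, with predicted transcripts added, and within 10 or 50 kb. Of 84 recomputed counts, 79 stayed within 1.5 times the count reported. Some of these could not move, so the 79 is not a measure of robustness. The strongest 4169 peaks are the whole aged IgG list, and every assigned peak lay within 50 kb of its TSS. The exchange of lists given last leaves aged IgG as it is. With a −log10 q of at least 10, aged IgG kept 1 of the 10 genes, Il4ra, with 2 peaks, while adult and aged anti-IL-17 kept 2 genes each, so that aged IgG went from the highest count to the lowest. With at least 5, 1 aged IgG peak was absent from adult, that of Il9, since the Crlf2 peak fell away. With 1 mismatch allowed in the κB motif, 4 of the 5 aged IgG peaks matched. Within 100 bp of the summit, 1 of the 3 aged anti-IL-17 peaks held a full match. With an overlap of at least 50% of both peaks or summits within 200 bp, the same genes had list-specific peaks. An exchange between the lists labelled adult and aged anti-IL-17 was added after the data were seen, and gave 2, 4 and 2 genes with a peak again, with 3, 5 and 4 peaks.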
